A study of Mus musculus with 5 samples.

Results

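The 10 genes described here encode basic helix-loop-helix (bHLH) transcription factors of neuronal differentiation: Neurod1, Neurod2, Neurod4, Neurod6, Neurog1, Neurog2, Bhlhe22, Bhlhe23, Bhlhe40 and Bhlhe41. They were chosen by name, out of 21938 protein-coding genes of the GENCODE M21 annotation of the mouse genome (GRCm38, mm10), by a rule that uses no measured value, but with earlier results of these data known. For each gene, every NEUROD2 ChIP-Seq peak that overlapped the gene body or the 50 kb on either side was taken. These spans held 54 peaks, of which 13 came from antibody 1, 28 from antibody 2 and 13 from antibody 3. They also held 9 of the 2071 sites that the deposited table lists as shared by all 3 antibodies.

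In ChIP-Seq, the DNA fragments that a protein occupies are recovered by an antibody to that protein and then sequenced. Cerebral cortex was dissected from untreated wild-type BALB/c pups at postnatal day 0, and the methods describe a pool of 5 littermates. There were 3 NEUROD2 libraries, 1 from each of the Abcam antibodies ab168932 (antibody 1), ab104430 (antibody 2) and ab109406 (antibody 3), a GFP antibody gave the control library of the peak calling, and the input DNA was left aside. No condition was varied, the tissue was whole cortex and so a mixture of cell types, and the sources do not say if different antibodies had different pools. Each peak carries a MACS score, minus 10 times the log10 of its p, which was not scaled between antibodies, was at least 50 in every list and reached at most 3100. Differences between the antibodies thus include those of reagent and library, and a single score has no error of its own. The lists hold 5202, 11196 and 3164 peaks for antibodies 1, 2 and 3, and the read depth behind them is unknown, although a deeper library gives more peaks and higher scores. A region without a peak has no value in these lists, so occupancy below the threshold was not measurable.

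Neurogenins (Neurog1 and Neurog2) are proneural factors of cortical progenitors that switch on the NeuroD genes, and Neurod1, Neurod2, Neurod4 and Neurod6 act as excitatory neurons differentiate and mature. Bhlhe22 (also called Bhlhb5) is a repressor of postmitotic neurons that takes part in setting cortical area identity, Bhlhe23 is a relative of it, and Bhlhe40 and Bhlhe41 encode the repressors DEC1 and DEC2 of the circadian clock. Factors of this family bind as dimers to the E-box, CANNTG, and NEUROD factors prefer the forms CAGATG and CAGCTG, whereas DEC1 and DEC2 bind CACGTG. Because NEUROD2 is itself a member, sites at Neurod2 bear on autoregulation and sites at the other genes on cross-regulation. Peaks give the positions where a NEUROD2 antibody recovered more DNA than the GFP antibody, and the expression of these genes was not measured in these files.

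Of the 3 genes with a shared site at the promoter, the 200 bp upstream of the transcription start site (TSS) are shown for Neurod2 and Neurod6. The same stretch of Neurod1, where only antibody 2 had a peak, is shown for comparison. All are GRCm38, read 5′ to 3′ on the strand of the gene, with E-boxes in capitals. CANNTG reads as an E-box on both strands, and CATCTG is the form CAGATG read from the other strand.
Neurod2 promoter (chr11:98329649-98329848, minus strand): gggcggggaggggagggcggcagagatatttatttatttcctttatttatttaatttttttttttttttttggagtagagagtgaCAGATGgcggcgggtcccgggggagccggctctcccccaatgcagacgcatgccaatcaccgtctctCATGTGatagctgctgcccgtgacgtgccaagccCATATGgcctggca
Neurod6 promoter (chr6:55681264-55681463, minus strand): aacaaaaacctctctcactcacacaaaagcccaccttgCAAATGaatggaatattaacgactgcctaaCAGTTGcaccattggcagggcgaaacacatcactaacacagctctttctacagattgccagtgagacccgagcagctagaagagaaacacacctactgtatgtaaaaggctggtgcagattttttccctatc
Neurod1 promoter (chr2:79456752-79456951, minus strand): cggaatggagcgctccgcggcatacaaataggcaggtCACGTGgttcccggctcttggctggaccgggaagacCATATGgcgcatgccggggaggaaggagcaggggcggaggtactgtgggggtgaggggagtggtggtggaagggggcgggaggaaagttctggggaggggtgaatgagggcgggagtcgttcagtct

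Away from the promoters, the central 200 bp are shown of 3 shared sites around Neurod2 and of the shared site past the end of Neurod6. The shared site farthest upstream of Neurod2 is added because it held neither preferred form. The regions near Neurog1 and Neurod4, each with a peak of antibodies 1 and 2, are added as the only regions at these genes. The region near Neurog2, with a peak of antibodies 2 and 3, is not shown. Sites are named by the distance of their midpoint from the TSS of the gene, negative upstream.
Neurod2, -4745 bp (chr11:98334293-98334492, minus strand): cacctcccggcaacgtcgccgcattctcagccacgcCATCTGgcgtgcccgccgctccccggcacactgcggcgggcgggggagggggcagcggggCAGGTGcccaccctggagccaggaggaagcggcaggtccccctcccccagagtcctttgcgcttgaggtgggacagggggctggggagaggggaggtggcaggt
Neurod2, +12291 bp (chr11:98317257-98317456, minus strand): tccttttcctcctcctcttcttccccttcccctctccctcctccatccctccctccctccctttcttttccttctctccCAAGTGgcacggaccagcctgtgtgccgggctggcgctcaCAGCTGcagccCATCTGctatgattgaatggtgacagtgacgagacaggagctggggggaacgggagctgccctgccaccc
Neurod2, +8305 bp (chr11:98321243-98321442, minus strand): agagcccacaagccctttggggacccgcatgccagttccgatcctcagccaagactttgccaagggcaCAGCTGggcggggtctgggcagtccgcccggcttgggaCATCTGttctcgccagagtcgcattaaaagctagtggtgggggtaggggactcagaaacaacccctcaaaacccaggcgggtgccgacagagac
Neurod6, +4599 bp (chr6:55676564-55676763, minus strand): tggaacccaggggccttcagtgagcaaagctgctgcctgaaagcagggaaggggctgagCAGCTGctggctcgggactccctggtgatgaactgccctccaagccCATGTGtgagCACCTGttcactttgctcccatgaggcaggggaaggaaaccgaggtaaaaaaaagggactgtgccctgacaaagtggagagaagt
Neurod2, -42223 bp (chr11:98371771-98371970, minus strand): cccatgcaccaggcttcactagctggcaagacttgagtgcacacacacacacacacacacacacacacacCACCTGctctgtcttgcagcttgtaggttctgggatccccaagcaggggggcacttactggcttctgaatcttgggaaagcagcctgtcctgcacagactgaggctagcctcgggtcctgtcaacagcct
Neurog1, -31294 bp (chr13:56283357-56283556, minus strand): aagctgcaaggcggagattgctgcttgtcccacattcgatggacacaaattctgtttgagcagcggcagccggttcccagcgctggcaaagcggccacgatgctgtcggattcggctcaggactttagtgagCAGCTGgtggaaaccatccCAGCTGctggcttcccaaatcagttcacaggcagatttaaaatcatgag
Neurod4, +16774 bp (chr10:130263366-130263565, minus strand): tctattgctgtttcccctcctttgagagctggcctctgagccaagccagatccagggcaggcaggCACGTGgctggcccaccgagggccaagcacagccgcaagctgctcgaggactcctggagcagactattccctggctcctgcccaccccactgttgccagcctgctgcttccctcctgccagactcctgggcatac

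Shared sites were present at 3 of the 10 genes, with 6 in the span of Neurod2, 2 in that of Neurod6 and 1 in that of Bhlhe22. Among all protein-coding genes 15.5% had a shared site in such a span, and among the 7774 genes with a body of at most 10 kb, to which 9 of the 10 belong, 12.4% did. All 3 genes had a site at the promoter, with the midpoint within 1000 bp of the TSS, which 2.63% of all genes had. These 3 genes were also the closest TSS of at least 1 shared site, as were 7.59% of all genes. With 10 genes, 1 gene more or less moves these shares by 10 percentage points, and genes chosen by name allow no test of them. The paper had already reported the sites at Neurod6 and Bhlhe22, and found NEUROD2 enriched there by quantitative PCR of precipitated DNA.

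The individual antibodies reached more of the genes. Antibody 1 had a peak in the span of 5 genes (29.4% of all genes), antibody 2 in that of 8 (52.7%) and antibody 3 in that of 4 (22.1%). At the promoter, antibodies 1 and 3 had a peak at the same 3 genes, where 5.17% and 4.35% of all genes had one. Antibody 2 had a promoter peak at 4 genes, those 3 and Neurod1 (17.8% of all genes). Neurod1, Neurod4, Neurog1, Neurog2 and Bhlhe23 thus had peaks without a shared site, and Bhlhe40 and Bhlhe41 had no peak. The 8 genes with a peak of antibody 2 were all those with any peak, which 55.3% of all genes had, so that a span without a peak was common.

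**Figure D1:**
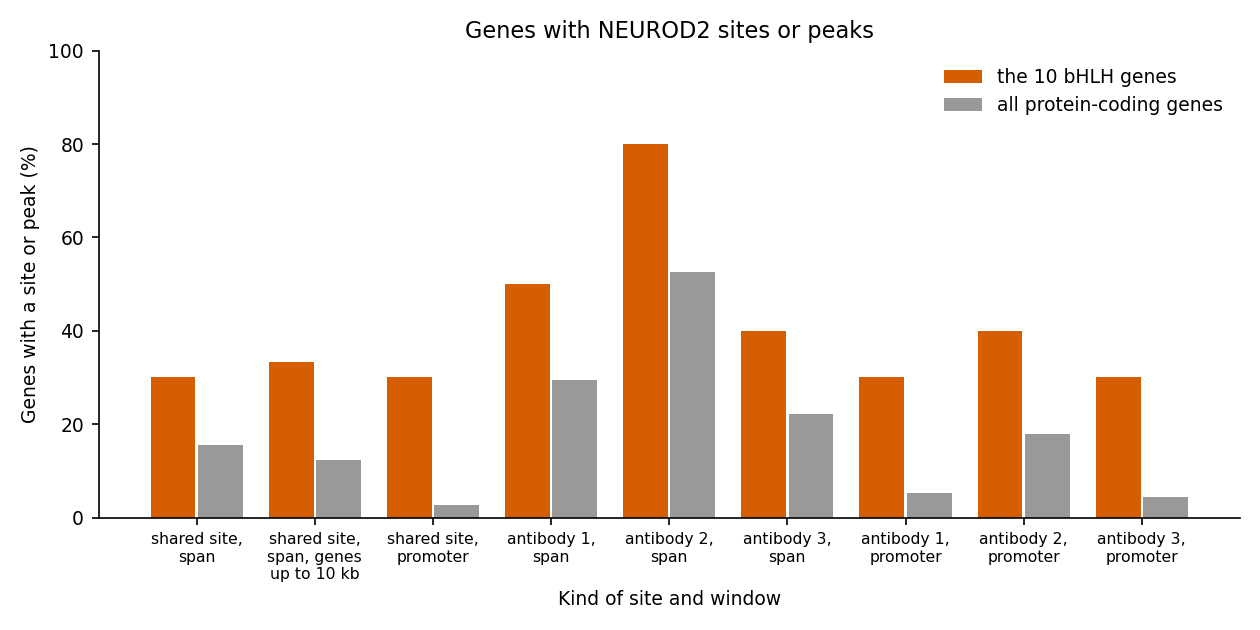
Percentage of genes (y axis) with a NEUROD2 site or peak in the body and 50 kb on either side (span) or within 1000 bp of the TSS (promoter), for the 10 bHLH genes (orange) and all protein-coding genes (grey); the bars for genes up to 10 kb cover 9 of the 10 genes and 7774 of all genes. The shares of the bHLH genes are 3 of 10 with a shared site in the span and 3 of 10 with one at the promoter, against 15.5% and 2.63% of all genes.

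**Figure D2:**
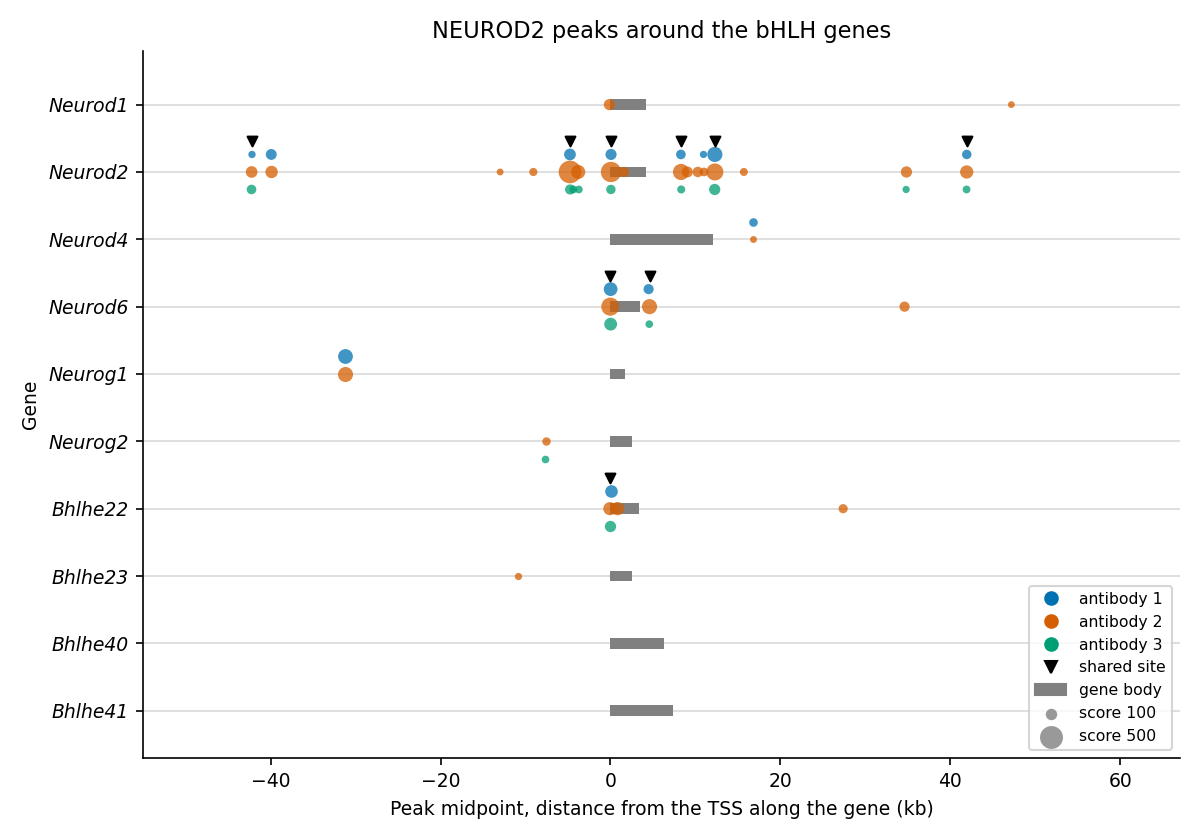
Positions of all 54 peaks around the 10 genes, by distance of the peak midpoint from the TSS in kb (x axis), with 1 row per gene, the colour and height in the row giving the antibody and the area of the point its MACS score; grey bars are gene bodies and black triangles the 9 shared sites. Peaks crowd around Neurod2, Neurod6 and Bhlhe22 have peaks of all antibodies at the TSS, and the rows of Bhlhe40 and Bhlhe41 are empty.

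Neurod2 (ENSMUSG00000038255, chr11:98325415-98329648, minus strand), the gene of the precipitated factor itself, accounted for 33 of the 54 peaks. Its body is 4.2 kb long, and its span held 8 peaks of antibody 1, 16 of antibody 2 and 9 of antibody 3. Of all 21938 genes, 4 had more shared sites in their span and 12 had more peaks. Among the 7774 genes of at most 10 kb, Neurod2 was the only one with 6 shared sites and none had more, while 5 of them, Neurod2 included, had at least 33 peaks.

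The shared site at the Neurod2 promoter (chr11:98329346-98329819) had its midpoint 65 bp into the gene. It scored 142.41 with antibody 1, 475.15 with antibody 2 and 102.34 with antibody 3. The site with the highest deposited score of the group, 939.64, lay 4745 bp upstream of the TSS (chr11:98333867-98334918). Its scores were 159.54 and 589.38 with antibodies 1 and 2, and antibody 3 had 2 peaks in it, of 119.26 and 71.46. The deposited score is the sum over the peaks of a site, and by it this site ranked 487 and the promoter site, with 719.9, ranked 733 of 2071. Antibody 2 therefore scored over 3 times as high as antibody 1 at both sites, with ratios of 3.34 at the promoter and 3.69 upstream.

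Downstream of the gene, the site at +12291 bp (chr11:98317092-98317622) was the one where antibodies 1 and 2 lay closest together at Neurod2. Antibody 1 scored 264.81 there, its highest value among the 9 sites, antibody 2 scored 333.99 and antibody 3 scored 145.65. The site at +8305 bp (chr11:98320919-98321766) scored 107.82, 302.12 and 74.84 with antibodies 1, 2 and 3. These values were lower than at +12291 bp with each antibody. Their deposited scores were 744.45 (rank 695) and 484.78 (rank 1290).

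The remaining sites in the span were farther away, and their deposited scores and those of antibodies 1 and 2 were lower than at the other Neurod2 sites, which did not hold for antibody 3. The site at +41927 bp (chr11:98287551-98287891) scored 103.72, 202.65 and 70.5 with antibodies 1, 2 and 3, with Neurod2 as the closest TSS but Cdk12 as the closest gene body, 9046 bp away. The site at -42223 bp (chr11:98371666-98372075) lay in an intron of Stard3, and the closest TSS was that of Tcap at 11940 bp. It scored 62.43, 157.65 and 106.73, and was the only one of the 9 sites where antibody 1 rather than antibody 3 had the lowest score. With this site set aside, 5 shared sites had Neurod2 as their closest TSS, and 4 of these lay together in 17827 bp (chr11:98317092-98334918).

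Being the closest TSS of at least 5 shared sites was rare, at 0.0456% of all genes, or 10 genes, a number chosen after the values were seen. Gse1 had 8 such sites, Auts2 and Sox11 had 7, and Chst15, Prex1, Slc39a11, Tenm4, Tiam2 and Trak1 had 5 like Neurod2. Apart from Sox11, with a body of 8.3 kb, these other genes had bodies between 81.4 and 1106.0 kb, against 4.2 kb for Neurod2.

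**Figure D3:**
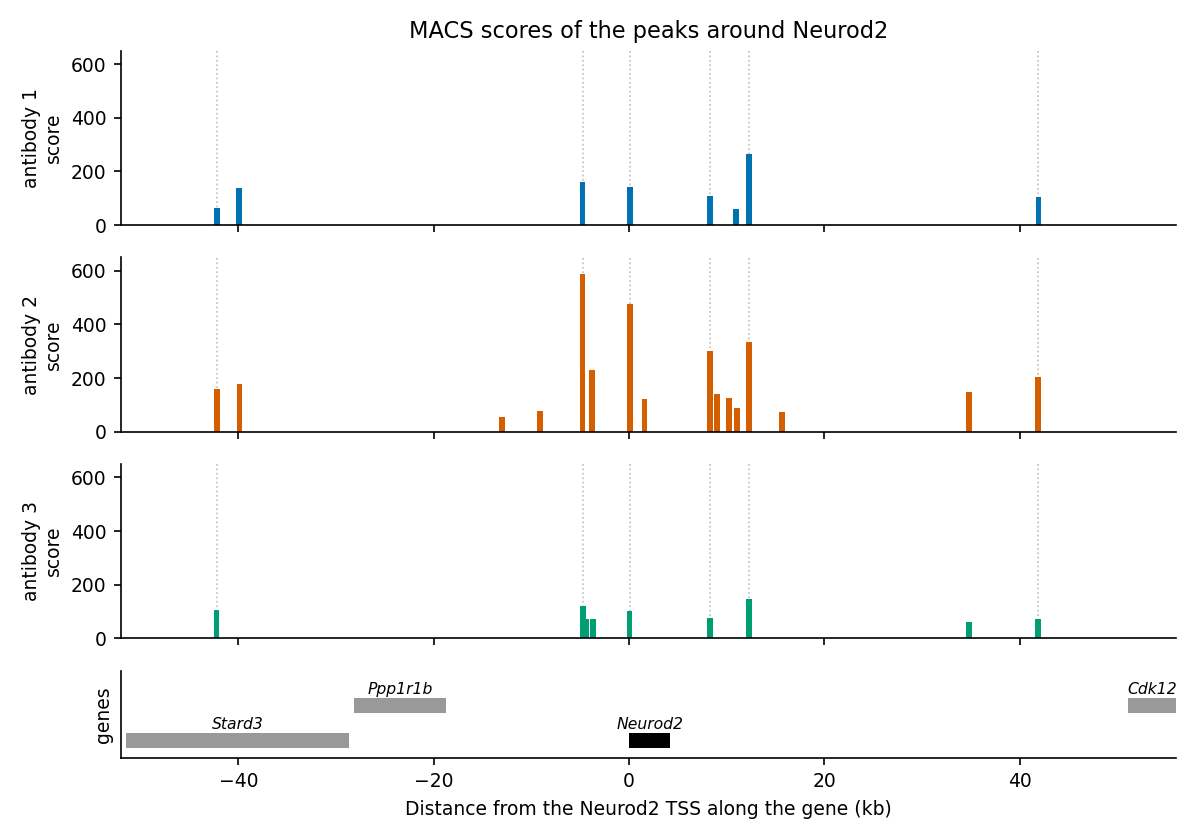
MACS scores (y axis, 1 panel per antibody) of the peaks within the span of Neurod2 by distance from its TSS in kb (x axis), with gene bodies in the lowest panel and dotted lines at the 6 shared sites. Bars have a fixed width and mark peak midpoints; antibody 2 has 16 peaks, with the 2 highest at -4745 bp (589.38) and at the TSS (475.15).

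Besides the shared sites, the span of Neurod2 held 10 regions with a peak of 1 or 2 antibodies. Antibody 2 had a peak in each of them, antibody 1 in 2 and antibody 3 in 2. The highest scores were 229.19 at -3794 bp, between the upstream site and the gene, where antibody 3 scored 70.94, and 177.16 at -39905 bp in Stard3, where antibody 1 scored 136.62. A peak of antibody 2 alone covered exon sequence 1598 bp downstream of the TSS, with a score of 121.15. The 3 further regions between the downstream sites, at +9041, +10285 and +11016 bp, scored 141.79, 125.82 and 88.23 with antibody 2, and only the last had a peak of another antibody, of 60.77 with antibody 1. The other 4 regions had scores between 54.14 and 146.79 with antibody 2, and 1 of them, at +34834 bp, also had a peak of antibody 3, of 60.78.

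Neurod6 (ENSMUSG00000037984, chr6:55677822-55681263, minus strand), which is active in maturing excitatory neurons together with Neurod2, had 7 peaks and no other protein-coding gene in its span. At its promoter site (chr6:55680992-55681565), centred 16 bp upstream of the TSS, antibodies 1, 2 and 3 scored 218.09, 378.05 and 189.38. The value of antibody 3 was its highest among the 9 sites. A second site (chr6:55676026-55677301) began 520 bp past the end of the gene, centred at +4599 bp, and scored 118.95, 263.89 and 67.47. Each antibody thus scored lower past the gene than at the promoter, and the deposited scores were 450.31 (rank 1381) and 785.52 (rank 646). Another peak, of antibody 2 alone, lay at +34612 bp with a score of 120.63.

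Bhlhe22 (ENSMUSG00000025128, chr3:18054174-18057517, plus strand) had 1 shared site (chr3:18053946-18054386), centred 8 bp upstream of its TSS. Antibodies 1, 2 and 3 scored 184.15, 200.19 and 147.36 there. The antibodies lay closer together than at any other of the 9 sites, with a ratio of antibody 2 to antibody 1 of 1.09, and its deposited score of 531.70 ranked 1157. Antibody 2 had another peak, of 205.06, in the exon at +837 bp, and 1 of 97.67 at +27387 bp in an intron of Cyp7b1. Neither of these had a peak of another antibody.

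The other NeuroD genes had less. Neurod1 (ENSMUSG00000034701, chr2:79452521-79456751, minus strand) had a promoter peak of antibody 2 alone, centred 124 bp upstream of the TSS (chr2:79456640-79457110), with a score of 144.11. Antibody 2 also had a peak of 53.21, near the threshold, at +47184 bp in an intron of Cerkl, and the closest shared site was 1124.8 kb away. Neurod4 (ENSMUSG00000048015, chr10:130268152-130280240, minus strand) had 1 region past its end, at +16774 bp (chr10:130263344-130263588), with 86.07 from antibody 1 and 55.55 from antibody 2. It was the only region around the 10 genes where antibody 1 scored higher than antibody 2.

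The neurogenins, which act upstream of the NeuroD genes, had no peak at their promoters. Near Neurog1 (ENSMUSG00000048904, chr13:56250478-56252163, minus strand), 1 region at -31294 bp (chr13:56283230-56283683) scored 251.87 with antibody 1 and 261.82 with antibody 2. Both scores were higher than those of the same antibodies at the Bhlhe22 promoter, but antibody 3 had no peak there, and the TSS of Cxcl14, at 12848 bp, was closer than that of Neurog1. Near Neurog2 (ENSMUSG00000027967, chr3:127633135-127635631, plus strand), 1 region at -7661 bp (chr3:127625260-127625688) scored 81.95 with antibody 2 and 67.2 with antibody 3. Their closest shared sites lay 446.4 kb and 216.0 kb from the TSS.

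Among the repressors, Bhlhe23 (ENSMUSG00000045493, chr2:180774381-180776900, minus strand) had 1 peak of antibody 2, of 60.79, at -10846 bp (chr2:180787630-180787862). Its closest shared site was 84.9 kb away, and so outside the span of 50 kb. Bhlhe40 (ENSMUSG00000030103, chr6:108660629-108666925, plus strand) and Bhlhe41 (ENSMUSG00000030256, chr6:145858243-145865558, minus strand) had no peak of any antibody in their spans. The closest peak lay 122.6 kb from the TSS of Bhlhe40 and 416.7 kb from that of Bhlhe41. Over the 21755 genes with a shared site on their chromosome, the median distance from the TSS to the closest shared site was 373 kb, so that Neurog2, Bhlhe23 and Bhlhe40 were closer to a shared site than this median, and Neurod1, Neurod4, Neurog1 and Bhlhe41 were farther.

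Across the 9 shared sites, antibody 2 had the highest score in all 9, as in 85.1% of all shared sites, and antibody 3 the lowest in 8, against 82.1%. The median scores were 142, 302 and 107 with antibodies 1, 2 and 3, and 167, 298 and 101 over all shared sites. The median ratio of antibody 2 to antibody 1 was 2.22, against 1.61, and ranged from 1.09 to 3.69 between the sites. The deposited score had a median of 531.70, against 573.06 over all sites, and the site in the middle of the 9 was 55.9% of the way down the ranking. The sites at these genes were thus of ordinary score among the shared sites, in the ranking by each antibody as well. Median positions were 58.9%, 49.3% and 46.7% for antibodies 1, 2 and 3 (SD 6.44, n = 3 antibodies at the same 9 sites).

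The order of the 9 sites was only partly the same for the antibodies. Spearman's rho between antibodies, over n = 9 sites that share their libraries and given as a description, was 0.517 for antibodies 1 and 2, 0.733 for 1 and 3, and 0.200 for 2 and 3. Over all 2071 sites the values were 0.713, 0.684 and 0.717. When each antibody was required to score at least 100, 5 of the 9 sites remained, the 3 at promoters and the sites at -4745 and +12291 bp of Neurod2, so that each of the 3 genes still had a site. At this setting 7.53% of all protein-coding genes had a shared site in the span and 1.04% at the promoter, against 15.5% and 2.63% before.

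**Figure D4:**
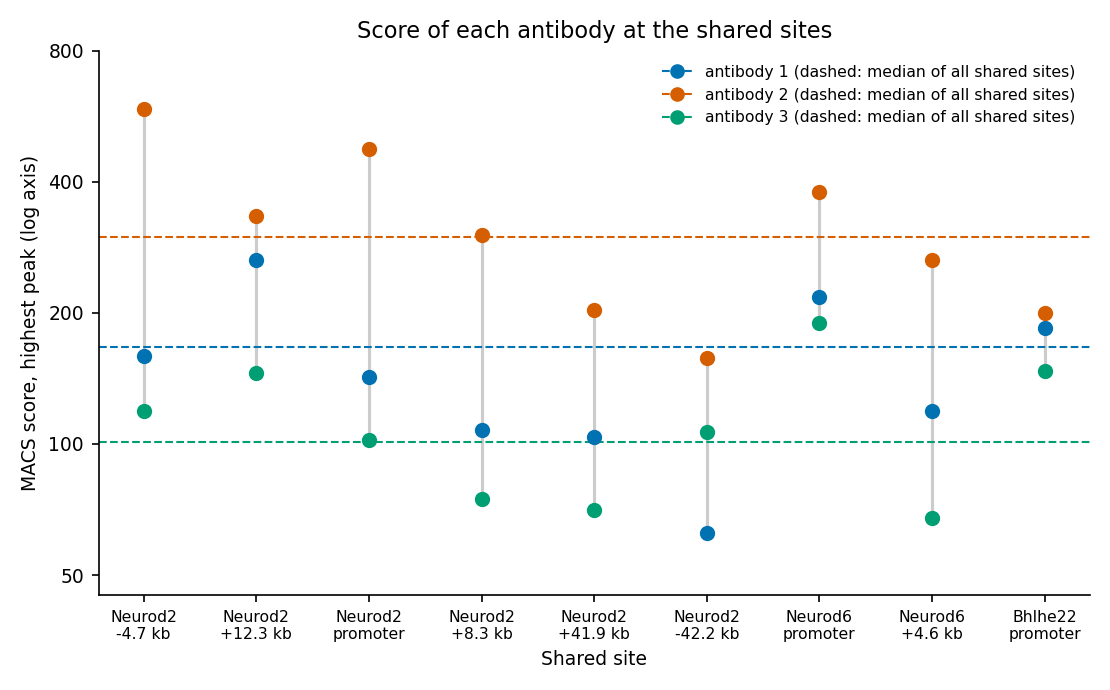
Highest MACS score of each antibody (y axis, log scale) at each of the 9 shared sites (x axis), with dashed lines at the median of each antibody over all 2071 shared sites. Antibody 2 is highest at every site, and the antibodies lie closest together at the Bhlhe22 promoter (184.15, 200.19 and 147.36).

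With overlapping peaks joined, the spans held 28 regions. Of these, 9 had peaks of all antibodies (32.1%, against 16.5% of all 12637 regions), 7 of 2 antibodies (25.0% against 19.8%) and 12 of 1 antibody (42.9% against 63.7%). All 12 of the latter were peaks of antibody 2, the antibody with the longest list, as were 6598 of all 8046 regions of 1 antibody. As a share of regions of any kind, those of antibody 2 alone made up 42.9% in the spans and 52.2% in the whole lists. The span of Neurod2 held 6 of the 9 regions with peaks of all antibodies. Without antibody 2 the spans held 26 of the 54 peaks. Without antibody 3, the list with the fewest peaks, the regions shared by the other antibodies added Neurog1 and Neurod4, so that 5 of the 10 genes had one, against 25.4% of all genes. Without antibody 1, Neurog2 was added, for 4 genes against 19.5%. The part of library depth in these differences was not tested.

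Each of the 9 shared sites held at least 1 E-box in its central 200 bp, as did 89.3% of all shared sites. In all there were 19, or 1.06 per 100 bp, against 0.500 per 100 bp in windows 2000 bp from the edges of the sites. Over all shared sites the densities were 1.22 and 0.574, and the ratio of centre to flank was 2.13, against 2.11 at these genes. When the windows were centred on the peak of antibody 1, 2 or 3 instead, the density was 1.00, 1.06 and 1.17 per 100 bp (mean 1.07 ± 0.0849, SD, n = 3 antibodies). These windows overlapped at the same 9 sites, so that the SD describes their placement and is not a spread between replicates. The sites at the bHLH genes thus resembled the other shared sites in E-box density. The sites at promoters had 1.00 per 100 bp and the others 1.08.

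The form CAGATG or CAGCTG occurred in the central 200 bp of 7 of the 9 sites, against 77.2% of all shared sites and 23.7% of the flanks. CAGATG was present in 6 (54.7% of all shared sites, 15.9% of flanks), and CAGCTG in 3 (42.0% and 9.42%). Both forms occurred together in 2 sites (19.6% of all shared sites, 1.69% of flanks), those at +12291 and +8305 bp of Neurod2. There CAGCTG preceded CATCTG by 11 bp and by 38 bp from start to start. The Neurod2 promoter site and the site at -42223 bp had neither form in their centres, and held CATATG and CACCTG there. CAGGTG, of which CACCTG is the other strand, was present in 3 sites (21.1% of all shared sites).

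Over their whole length the 9 sites held 54 E-boxes, or 0.908 per 100 bp. All 2088 joined regions with peaks of all antibodies had a like density, of 0.876 per 100 bp. Shares of the single forms over the whole length of all shared sites are not given here. CAGATG was the most frequent form, with 12 copies in 8 sites, all but the one at -42223 bp, followed by CAGGTG with 11 copies in 4 sites and CAGCTG with 9 copies in 4 sites. The longest sites held the highest numbers, with 13 in the 1276 bp of the Neurod6 site at +4599 bp and 11 in the 1052 bp of the Neurod2 site at -4745 bp, of which 6 were CAGGTG. The form bound by DEC1 and DEC2, CACGTG, was in none of the 9 sites over their whole length. Within the central 200 bp it was in 98 of all 2071 shared sites (4.73%), so that 9 sites are too few to read its absence. CACGTG was the single E-box of the region near Neurod4 printed above. The region near Neurog1 had 2 copies of CAGCTG in its central 200 bp, 19 bp apart from start to start. The 7 regions of 2 antibodies in the spans had 0.495 E-boxes per 100 bp over their whole length, against 0.876 in all such regions.

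**Figure D5:**
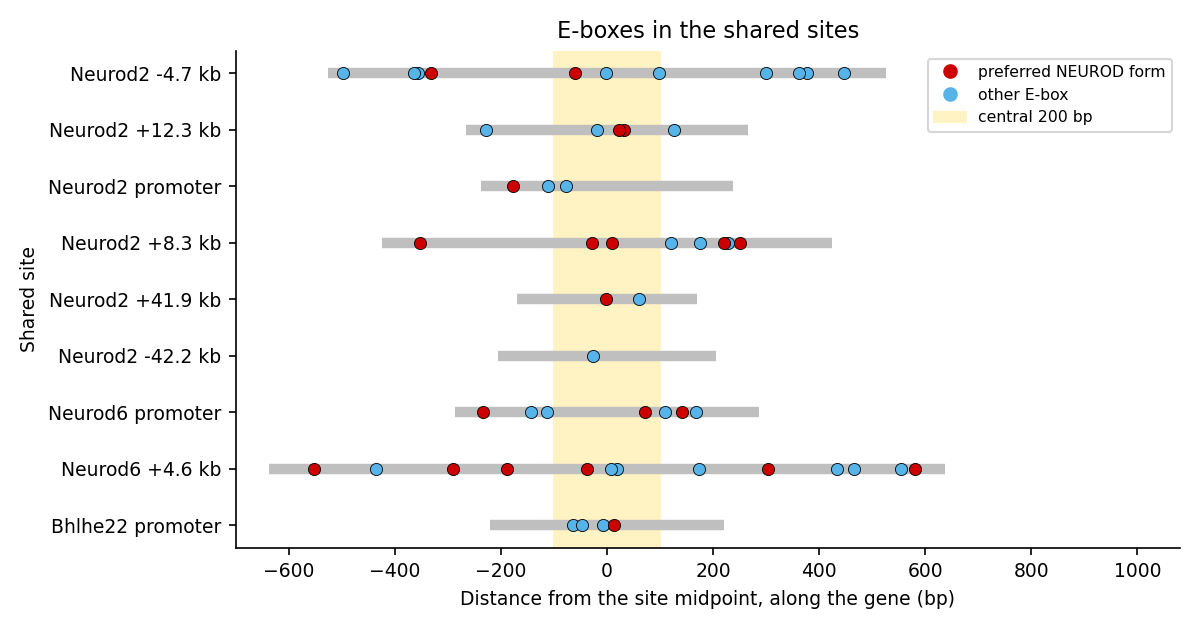
E-boxes along the 9 shared sites (1 row each), by distance from the site midpoint in bp along the gene (x axis); grey bars are the sites, red points are the preferred NEUROD forms CAGATG and CAGCTG, blue points the other forms, and the yellow band the central 200 bp. Each site has at least 1 E-box in the band, and the sites at -4.7 kb of Neurod2 and +4.6 kb of Neurod6 are the longest, with 11 and 13 E-boxes.

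The promoters printed above differed in their E-boxes. In the 200 bp upstream of the TSS, Neurod2 had CAGATG at -115, CATGTG at -48 and CATATG at -14, counted from the TSS to the first base of the E-box. Neurod6 had CAAATG at -162 and CAGTTG at -132, and its 3 copies of CAGATG lay elsewhere in the 574 bp of its site, 1 of them in the central 200 bp. Neurod1, with a peak of antibody 2 only, had CACGTG at -163 and CATATG at -127. Of the 10 genes, 7 had an E-box in this stretch (55.5% of all protein-coding genes), and 1, Neurod2, had CAGATG or CAGCTG (19.2%). A match is a description of the letters and not a measured site.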

How the data were processed

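NEUROD2 ChIP-Seq of mouse cortex was represented by 3 peak lists, 1 per antibody, and a table of shared sites. The authors used Bowtie and MACS through Galaxy to map reads to mm10 and to call the peaks of each antibody against the GFP library. The deposited score of a peak is minus 10 times the log10 of p, and the deposited score of a shared site is the sum over its peaks. Read depth is unknown from these files.

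The genes and the lists were chosen with earlier results of these data known, and all 10 listed genes are named. From the deposited files, peaks and sites overlapping each gene body and 50 kb on either side (GENCODE M21) were collected by at least 1 bp. A site counted as a promoter site when its midpoint lay within 1000 bp of a protein-coding TSS, and the highest peak of an antibody in a site gave its score. E-boxes were searched as CANNTG, overlapping matches included, in the GRCm38 sequence. Shares over all protein-coding genes or shared sites stand in for tests, since each antibody had 1 library and no condition was varied. Alternatives concerned the span, the overlap, a score of at least 100, the TSSs, the E-box windows and leaving out each antibody. The steps were tested on simulated peaks and sequences, with Python 3.11.15, numpy 2.4.6, pandas 2.3.3, matplotlib 3.10.9 and pysam 0.24.0. No protein sequences were used here, and promoter sequences other than those of Neurod1, Neurod2 and Neurod6 are not reported here.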

Additional observations from a re-analysis of the deposited data

How the results depend on the processing

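Of 56 values under alternative settings, 45 stayed within the limits set for a move and 11 moved. For counts the limit was 1.5-fold, which is wide, so that 36 peaks within 10 kb did not count as a move from 54 within 50 kb. Neurod2, Neurod6 and Bhlhe22 were the 3 genes with a shared site at the promoter under every alternative run for that count (3 to 3 when 1 antibody was left out). Leaving out 1 antibody requires fewer antibodies to share a site, and the wider TSS settings only add sequence. These settings could thus add genes but hardly lose any. The share of all genes was 3.78%, 2.64% and 4.76% without antibody 1, 2 and 3, against 2.63%. With a score of at least 100, which can lose genes, it was 1.04%. The number of genes with a shared site in the span ranged from 3 to 5 when 1 antibody was left out, with 5 reached without antibody 3. With a score of at least 100, the sites whose closest TSS was that of a member fell from 8 to 5, all shared sites in the spans from 9 to 5, and the peaks in the spans from 54 to 35. Leaving out 1 antibody gave 26 to 41 peaks, the fewest without antibody 2. The E-box density was 0.908 per 100 bp over whole sites (flanks 0.530), 1.56 in the central 100 bp (flanks 0.778), 0.500 for CAGATG or CAGCTG alone (flanks 0.111), and 0.917 to 1.00 when 1 antibody was left out. In the list of other bHLH genes, 1 gene had a shared site within 10 kb and 6 within 100 kb, against 2 within 50 kb (7.49%, 23.4% and 15.5% of all genes). Within 10 kb the spans of the 10 genes held 7 shared sites and within 100 kb they held 10, the added one near Bhlhe23. Fewer sites, peaks or bases enter by construction under the stricter settings, and the cause of the other moves was not tested. No paired analysis was possible because each antibody has 1 library, values of the GFP and input libraries were not analysed here, and no test between groups was made. Depth limits what can be said of genes without a peak.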

Other observations

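Among 14 other listed bHLH genes, 2 had a shared site in the span and none had one at the promoter, against 15.5% and 2.63% of all protein-coding genes. Neurog3, the third neurogenin gene, had a site at -4554 bp (chr10:62128129-62128943), in an intron of Fam241b. Its scores were 900.67, 757.22 and 332.03 with antibodies 1, 2 and 3, and its deposited score of 1989.92 ranked 125 of 2071. These values were higher with each antibody than at any of the 9 sites around the 10 genes, and antibody 1 rather than antibody 2 had the highest score. The site in the span of Nhlh1 (chr1:172026949-172027644, deposited score 750.73) lay 30276 bp downstream of its TSS and 2 bp from the TSS of Vangl2. Any peak was present at 7 of the 14 genes, against 55.3% of all genes.

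Of 6 genes for bHLH partners and cortical transcription factors, 3 had a shared site in the span and 1 had one at the promoter, against 15.5% and 2.63% of all genes. The 3 genes without were Tcf4, Pax6 and Eomes. Tcf4, like Tcf12 and Tcf3, encodes an E protein, and its span held 9 peaks, 2, 6 and 1 of antibodies 1, 2 and 3. A span grows with the gene body, and this count was not set against genes of like length. Tcf12, which encodes an E protein that pairs with NEUROD factors, had a promoter site at -186 bp (chr9:72111831-72112282) with scores of 129.64, 297.45 and 77.01. The site in the span of Tcf3, another E protein gene, lay 331 bp from the TSS of Mbd3 and scored 70.19, 356.47 and 78.22. Tbr1, a transcription factor gene of deep-layer neurons, had a site at +12993 bp (chr2:61815483-61816363) with 56.01, 208.46 and 54.54.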
